A study of Mus musculus with 18 samples.

Results

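The genes described are 8 members of the tumour necrosis factor (TNF) superfamily that sorted lung neutrophils could use to signal or to sense TNF-type ligands. They are 5 ligands (Tnf, Ltb, Tnfsf9, Tnfsf14 and Tnfsf13b) and 3 receptors (Tnfrsf1a, Tnfrsf1b and Tnfrsf9), taken by symbol from 40481 gene IDs in the deposited count table. All 8 were among the 16575 genes with enough reads to be tested.

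The libraries were made from Ly6G+ CD11b+ CD45+ live cells of mouse lung, sorted by surface CD101, which appears late in neutrophil maturation. The labels call CD101-positive (CD101pos) cells mature and CD101-negative (CD101neg) cells immature. Wild-type (WT) C57BL/6 mice were compared with CGD/CYBB KO mice of the same background, which lack Cybb, the gene of the oxidase subunit that makes superoxide in phagocytes, as in chronic granulomatous disease (CGD). There were 6 groups of 3 libraries. Naive CD101pos cells came from male mice of 12 weeks. Zymosan CD101pos and zymosan CD101neg cells came from female mice of 13 weeks, 24 hours after 20 µg of zymosan, a yeast cell wall preparation, by the nose. Each comparison of zymosan with naive cells is therefore also one of sex and age, which cannot be told apart from zymosan, and no naive CD101neg group was analysed here. Nothing in the sources used here says that replicates of a group are separate mice, so p-values measure the spread between these libraries.

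TNF is made as a membrane protein on the cell surface and is released by the protease ADAM17. It binds TNFR1 (Tnfrsf1a), which most cells carry and whose death domain can lead either to NF-kB activation or to cell death, and TNFR2 (Tnfrsf1b), which has no death domain and recruits TRAF proteins directly. Neutrophils are known to both make and respond to TNF, which primes their oxidative burst and adhesion. Other members act in pairs, such as 4-1BB ligand (Tnfsf9) with 4-1BB (Tnfrsf9), while lymphotoxin beta (Ltb), LIGHT (Tnfsf14) and BAFF (Tnfsf13b) mainly address lymphoid tissue, T cells and B cells.

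Libraries held 33.7 to 67.9 M counts in genes. Cybb stood between 29.6 and 59.5 CPM (counts per M counts, scaled by TMM factors) in CGD libraries and between 126 and 283 CPM in WT libraries. All 11 neutrophil marker genes had counts in every group. The Cd101 transcript lay between 322 and 451 CPM in WT zymosan CD101pos libraries and between 156 and 185 CPM in WT CD101neg libraries. In CGD it lay between 95.9 and 112 CPM and between 47.3 and 82.0 CPM, so that the CGD CD101pos libraries held less of it than the WT CD101neg libraries. A pair of library numbers stood apart in the genes described here. WT zymosan replicate 2 was lowest in Tnf in both sorts, and CGD naive replicate 2 was highest in Tnf and Tnfrsf9 among naive libraries.

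Promoter sequence is shown for Tnf, Ltb and Tnfrsf9, because Tnf and Tnfrsf9 had the widest ranges of level and because Ltb, a neighbour of Tnf on chromosome 17, had a narrow one. Each run is the 250 bases before the transcription start from RefSeq on GRCm38.p6, read 5′ to 3′ on the gene's own strand, and 7 of the 8 members had an entry (Tnfsf9 had none). Capitals mark the NF-kB motif GGNNTTTCC, the AP-1 motif TGANTCA and the TATA box TATAAA, searched on both strands, and no matches overlapped.
Tnf, chr17:35202008-35202257, minus strand: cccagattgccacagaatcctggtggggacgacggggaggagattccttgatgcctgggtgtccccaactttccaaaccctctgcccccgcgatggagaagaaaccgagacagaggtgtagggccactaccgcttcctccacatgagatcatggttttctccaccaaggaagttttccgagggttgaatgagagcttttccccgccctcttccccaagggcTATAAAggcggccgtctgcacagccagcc
Ltb, chr17:35194257-35194506, plus strand: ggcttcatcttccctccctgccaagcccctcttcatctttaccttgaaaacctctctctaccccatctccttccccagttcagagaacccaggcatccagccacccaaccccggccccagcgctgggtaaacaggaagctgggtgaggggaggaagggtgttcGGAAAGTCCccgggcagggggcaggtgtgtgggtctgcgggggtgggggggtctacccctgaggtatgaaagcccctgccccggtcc
Tnfrsf9, downstream start, chr4:150927749-150927998, plus strand: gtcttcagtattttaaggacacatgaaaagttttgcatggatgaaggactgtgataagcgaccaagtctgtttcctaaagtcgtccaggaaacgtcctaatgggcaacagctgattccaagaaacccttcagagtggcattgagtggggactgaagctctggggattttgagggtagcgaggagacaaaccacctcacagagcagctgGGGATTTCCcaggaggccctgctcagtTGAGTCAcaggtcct
The Tnf window held 1 TATA box, beginning 29 bases before the start, and no match of the other motifs. A TATA box was present in 12.4% of the 32851 windows of all promoters in the table. The Ltb window held 1 NF-kB motif, beginning 87 bases before the start, a motif found in 4.93% of all windows. The window of the downstream Tnfrsf9 start held 1 NF-kB motif, beginning 42 bases before the start, and 1 AP-1 motif, beginning 15 bases before it. The AP-1 motif was found in 6.75% of all windows, and among the other members it occurred before the Tnfsf14 start and before 1 of 2 Tnfsf13b starts. The windows of Tnfrsf1a, Tnfrsf1b and the upstream Tnfrsf9 start held none of the motifs. A match is a run of letters and not a measured binding site. Sites further from the start or spelled otherwise were not searched, so a window without a match may still lie near such sites.

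Across the comparisons, 2 of the 8 members changed with zymosan and 1 differed between genotypes (edgeR quasi-likelihood test, adjusted p under 0.05). Tnf and Tnfsf9 rose with zymosan in CD101pos cells of both genotypes, against 3.79% of all genes called in WT and 12.8% in CGD. Tnfsf13b was higher in CGD than in WT CD101neg cells, 1 of 8 members where 12.9% of all genes were called. None of the 8 passed between genotypes in zymosan CD101pos cells (5.30% of all genes called) or in naive cells (0.127%). None passed between CD101neg and CD101pos cells of WT (0.440%) or of CGD (7.35%). None passed in the interaction of genotype with sort (0.851%) or with zymosan (0.320%), which test whether the sort or zymosan difference of CGD differs from that of WT. The counts of members at an unadjusted p under 0.05 in these last 6 comparisons were, in the same order, 2, 1, 3, 3, 1 and 0. Over all 16575 genes tested by edgeR, the counts at that cut were 2969, 1147, 1698, 3795, 2380 and 1767. Of the members, DESeq2 called 0, 1, 0, 3, 0 and 0. Of 84 other TNF-related genes tested, it called 12, 0, 2, 23, 5 and 4 in the same order. Its counts over all genes are not given here, so its calls of members are not shown to be particular to them.

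**Figure D1:**
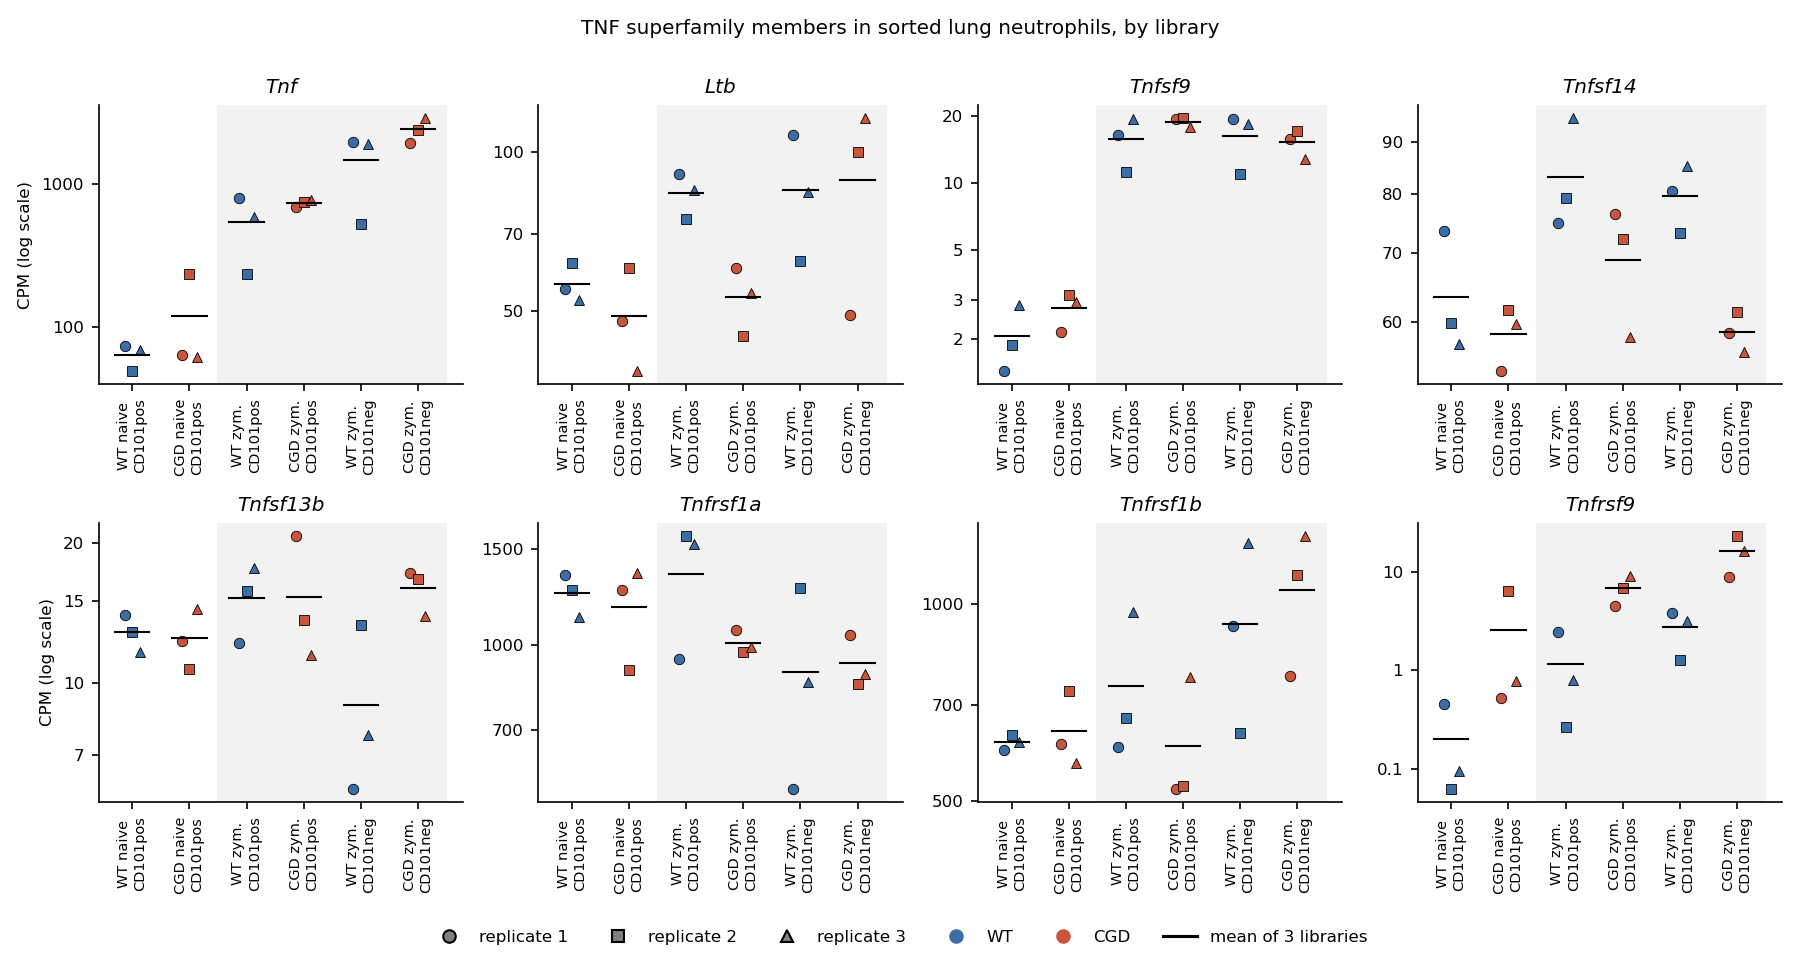
Levels of the 8 members in CPM on a log axis, by group, with 1 point for each library (shape for replicate number, colour for genotype) and a line at the mean of 3. Grey marks the zymosan groups. Tnf and Tnfsf9 lie above all naive libraries in every zymosan library, and Tnfrsf9 lies higher in CGD than in WT within each sort.

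Tnf, the ligand that gives the family its name, rose from naive to zymosan CD101pos cells. WT naive libraries held 74.1, 49.4 and 69.3 CPM and WT zymosan CD101pos libraries 800.5, 236 and 589 CPM. CGD naive libraries held 64.1, 235 and 61.7 CPM and CGD zymosan CD101pos libraries 690.5, 753 and 777 CPM. In both genotypes each zymosan library lay above each naive library, although WT zymosan replicate 2 came close to the level of CGD naive replicate 2. The log2 fold change was 3.08 ± 0.55 (SE) in WT (adjusted p = 0.00353, edgeR) and 2.62 ± 0.54 in CGD (adjusted p = 0.00368), and these calls held under every alternative run. The test of whether the 2 rises differed gave -0.45 ± 0.73 (adjusted p = 0.869). In these bulk libraries, more cells that hold a transcript and more transcript in each cell cannot be told apart.

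Tnf was highest in the CD101neg sort. WT CD101neg libraries held 1976, 529 and 1897 CPM, and CGD CD101neg libraries 1954, 2378 and 2904 CPM. Every CGD CD101neg library lay above every CGD CD101pos library, and the log2 difference was 1.70 ± 0.53 (adjusted p = 0.0567, edgeR, not past the threshold). It passed with DESeq2 (adjusted p = 0.00722) and in a fit of only the 2 groups (adjusted p = 0.00338, edgeR). In WT the groups overlapped through replicate 2, and the log2 difference of 1.44 ± 0.52 did not pass (adjusted p = 0.319). WT libraries of the 2 sorts deviated together by replicate number, and within a number the CD101neg level was 2.47, 2.24 and 3.22 times the CD101pos level. With the number as a block, Tnf was higher in WT CD101neg cells by 1.38 ± 0.14 on the log2 scale (adjusted p = 4.96e-06, edgeR). No label says that a number is a mouse, and the pairing was taken from these same data. The same holds for the WT block fits below. Over all genes, 73 were called between the WT sorts in the main fit and up to 1741 under an alternative. In WT zymosan libraries the order of Ly6g, the sort's own marker, ran against that of Tnf, with 10.6, 82.9 and 33.4 CPM in CD101pos and 6.78, 99.9 and 24.7 CPM in CD101neg replicates 1, 2 and 3.

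Between genotypes Tnf did not pass in any of the 3 comparisons. The log2 difference of CGD from WT was 0.72 ± 0.51 in CD101neg cells (adjusted p = 0.388, edgeR), 0.45 ± 0.51 in zymosan CD101pos cells (adjusted p = 0.718) and 0.90 ± 0.52 in naive cells (adjusted p = 0.811). The naive difference rested on CGD replicate 2, without which it was -0.027 ± 0.46. Ordered by mean level, the groups ran from CGD CD101neg (2412 ± 476 CPM, SD, n = 3) through WT CD101neg (1467 ± 814), CGD zymosan CD101pos (740.2 ± 44.8) and WT zymosan CD101pos (542 ± 285) to CGD naive (120.2 ± 99.3) and WT naive (64.2 ± 13.1). Neighbours in this order overlapped except at the step from WT zymosan CD101pos to the naive groups. Macrophages and monocytes also make TNF. Of 10 monocyte and interstitial macrophage markers, Csf1r made up much of the summed level, and the other 9 summed to 112 to 144 CPM in WT naive, 183 to 244 CPM in WT zymosan CD101pos and 179 to 398 CPM in WT CD101neg libraries. With Csf1r the sums were 561 to 606, 747 to 842 and 747 to 875 CPM. In CGD the 9 summed to 171 to 323, 378 to 448 and 209 to 634 CPM in the same order of groups, and with Csf1r to 664 to 766, 676 to 815 and 595 to 884 CPM. The 10 alveolar macrophage markers without Chil3, which neutrophils also express, summed to 159 to 167, 175 to 515 and 180.4 to 384 CPM in WT and to 154 to 250.5, 401 to 688 and 246 to 354 CPM in CGD. With zymosan, 4 of the 10 monocyte markers were called higher and 0 lower in WT, and 5 higher and 2 lower in CGD. In CD101neg cells 8 of the 10 were called lower in CGD than in WT, and between the CGD sorts 6 were called lower in CD101neg cells. In zymosan CD101pos cells 4 were called higher and 1 lower in CGD than in WT. Of the 10 alveolar macrophage markers, 5 were called higher and 0 lower with zymosan in each genotype. In CGD against WT, 4 of these were called higher in zymosan CD101pos cells, and 1 higher and 5 lower in CD101neg cells. Between the CGD sorts 6 alveolar macrophage markers were called lower in CD101neg cells. None of these markers was at 0, and their part in the Tnf levels was not tested.

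Tnfsf9, the ligand of 4-1BB, rose with zymosan by about as much as Tnf but from a level near 2 CPM. WT naive libraries held 1.43, 1.87 and 2.85 CPM and WT zymosan CD101pos libraries 16.5, 11.2 and 19.5 CPM. CGD naive libraries held 2.15, 3.16 and 2.93 CPM and CGD zymosan CD101pos libraries 19.3, 19.7 and 17.8 CPM. The groups were far apart in both genotypes. The log2 fold changes were 2.95 ± 0.29 in WT (adjusted p = 8.58e-06, edgeR) and 2.79 ± 0.29 in CGD (adjusted p = 4e-06), and these calls held under every alternative run. CD101neg libraries held 19.5, 11 and 18.4 CPM in WT, overlapping the CD101pos libraries, and 15.9, 17.1 and 12.9 CPM in CGD, all lower than in CD101pos cells, a difference that did not pass (adjusted p = 0.525). No source used here gives the strand setting of the counts, and 14.9% of the Tnfsf9 exon bases (192 of 1290 in the GENCODE vM21 annotation) overlap the lincRNA gene Gm11110 on the opposite strand. Reads there could belong to either gene.

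Ltb, which forms a membrane heterotrimer with lymphotoxin alpha, did not pass in any comparison. Its libraries lay between 38.5 and 116 CPM in all. WT zymosan CD101pos libraries (91.1, 74.9 and 84.8 CPM) all lay above the WT naive libraries (55.1, 61.7 and 52.6 CPM), with a log2 difference of 0.57 ± 0.26 (adjusted p = 0.282, edgeR). CGD zymosan CD101pos libraries held 60.3, 44.9 and 54.2 CPM, all below WT, with a log2 difference of -0.65 ± 0.26 (adjusted p = 0.181). In CGD CD101neg cells it spread over 49.3, 100.03 and 116 CPM, and the difference from CGD CD101pos cells was 0.74 ± 0.26 (adjusted p = 0.097). Without CGD CD101neg replicate 1, the low one, it was 0.97 ± 0.23 (adjusted p = 0.0182). B cells are a known source of Ltb. The 8 B cell markers summed to 433 to 458 CPM in WT naive and 150.05 to 178 CPM in WT zymosan CD101pos libraries, and to 304 to 440.1 and 47.8 to 67.7 CPM in the same CGD groups. Pax5 was at 0 in CGD CD101neg libraries. The part of B cells in the Ltb level was not tested.

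Tnfsf14 (LIGHT), a ligand of HVEM and of the lymphotoxin beta receptor, varied least among the ligands, between 53.7 and 95.0 CPM over the 18 libraries. CGD CD101neg libraries held 58.5, 61.3 and 56.1 CPM and lay below all WT CD101neg libraries (80.5, 73.3 and 85.2 CPM). The log2 difference was -0.44 ± 0.16 (adjusted p = 0.0813, edgeR), which did not pass. It kept its sign under every alternative, from -0.93 to -0.39. Whether it passed rested on scaling, since with library size alone it was -0.93 ± 0.16 (adjusted p = 0.00121, edgeR). WT zymosan CD101pos libraries (74.9, 79.3 and 95.0 CPM) lay above WT naive libraries (73.7, 59.9 and 57.05 CPM), by 0.39 ± 0.16 (adjusted p = 0.222).

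Tnfsf13b (BAFF), a survival factor for B cells that neutrophils are known to release, was higher in CGD than in WT CD101neg cells. WT CD101neg libraries held 5.92, 13.3 and 7.73 CPM and CGD CD101neg libraries 17.2, 16.8 and 14.0 CPM. The groups did not overlap, and the lowest group mean of this gene was that of WT CD101neg cells (8.99 ± 3.86 CPM, SD, n = 3, against 12.5 to 16.0 CPM in the other groups). The log2 difference was 0.83 ± 0.27 (adjusted p = 0.0478, edgeR). The call was lost with library size alone (0.39 ± 0.21, adjusted p = 0.172, edgeR) and in a fit of only the 2 groups (adjusted p = 0.124). It was also lost on leaving out any of the CGD libraries or WT replicate 1 or 3 (adjusted p between 0.0627 and 0.196). With the replicate number as a block across both genotypes, where it has no stated meaning, the adjusted p was 0.0575. Within WT the CD101neg level was 0.484, 0.843 and 0.436 times the CD101pos level in replicates 1, 2 and 3. For the WT sorts the fit without a block gave -0.76 ± 0.27 (adjusted p = 0.293, edgeR). A block of genotype and number together gave -0.84 ± 0.19 (adjusted p = 0.00707). In CGD the 2 sorts overlapped (0.07 ± 0.27). The test of whether the sort difference itself differed by genotype gave 0.83 ± 0.38 (adjusted p = 0.323).

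**Figure D2:**
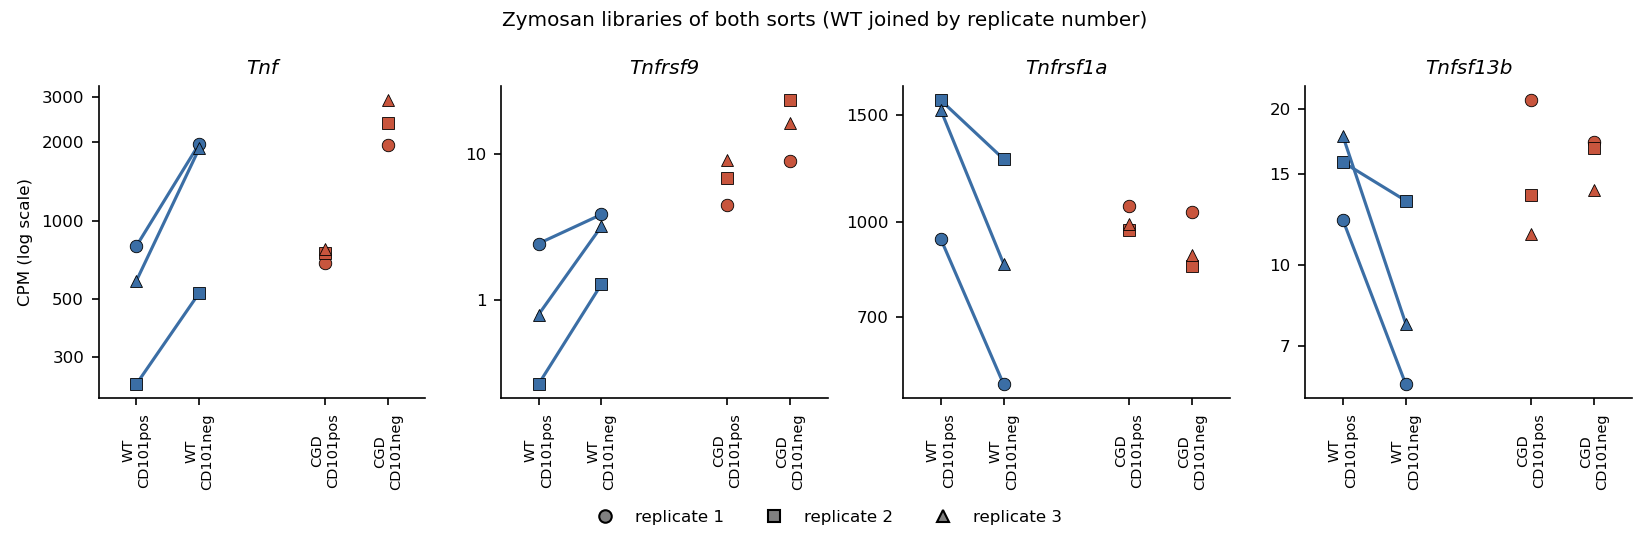
Levels in CPM on a log axis in the zymosan libraries of both sorts for Tnf, Tnfrsf9, Tnfrsf1a and Tnfsf13b, with 1 point for each library. Lines join WT libraries of the same replicate number. In all 3 WT pairs Tnf and Tnfrsf9 were higher, and Tnfrsf1a and Tnfsf13b lower, in CD101neg cells.

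Of the receptors, Tnfrsf1a (TNFR1) was abundant in every group. Its libraries ranged from 899 to 1356 CPM in naive, from 941 to 1583 CPM in zymosan CD101pos and from 545 to 1269 CPM in CD101neg cells. No comparison without a block passed. WT CD101neg libraries held 545, 1269 and 857 CPM against 941, 1583 and 1527 CPM in WT CD101pos libraries, and each was lower than its same-numbered partner (0.579, 0.802 and 0.561 times). The log2 difference was -0.60 ± 0.26 without a block (adjusted p = 0.436, edgeR) and -0.65 ± 0.13 with the number as a block (adjusted p = 0.00284). In CGD the CD101neg libraries (1042, 849 and 885 CPM) and CD101pos libraries (1065, 972 and 993 CPM) overlapped.

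Tnfrsf1b (TNFR2) lay between 521 and 1270.05 CPM. CGD CD101neg libraries held 775, 1108 and 1270.05 CPM and CGD CD101pos libraries 521, 526 and 772 CPM, so that the groups only just separated. The log2 difference was 0.79 ± 0.26 (adjusted p = 0.0663, edgeR), which did not pass. It passed with DESeq2 (adjusted p = 0.0224), without the low-count filter (adjusted p = 0.0485, edgeR) and without CGD CD101neg replicate 1 (adjusted p = 0.0466). WT CD101neg libraries (924, 635 and 1237 CPM) overlapped WT CD101pos libraries (605, 669 and 972 CPM). Naive libraries of both genotypes lay between 571 and 736 CPM.

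Tnfrsf9 (4-1BB), a costimulatory receptor best known on activated T cells and NK cells, was rare and varied most. WT naive libraries held 0.449, 0.0619 and 0.0957 CPM, which are 27, 4 and 4 counts. CGD naive libraries held 0.523, 6.45 and 0.77 CPM. WT zymosan CD101pos libraries held 2.43, 0.266 and 0.795 CPM and CGD zymosan CD101pos libraries 4.49, 6.81 and 9.08 CPM. In CD101neg cells WT libraries held 3.84, 1.28 and 3.18 CPM and CGD libraries 8.94, 23.2 and 16.2 CPM. All CGD libraries thus lay above all WT libraries in each of the 3 genotype comparisons.

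The log2 difference of Tnfrsf9 in CGD from WT was 2.54 ± 0.86 in CD101neg cells (adjusted p = 0.0601, edgeR), 2.52 ± 0.87 in zymosan CD101pos cells (adjusted p = 0.114) and 3.62 ± 1.00 in naive cells (adjusted p = 0.328). None passed. DESeq2 called the first (adjusted p = 0.0466) and the last (adjusted p = 0.0401), and fits of only the 2 groups compared called the first (adjusted p = 0.0169) and the second (adjusted p = 0.0466). The second was also called without WT zymosan CD101pos replicate 1 (adjusted p = 0.0489). The naive difference ranged from 1.63 to 5.04 on leaving out 1 library and was not called in any of those fits. In WT the CD101neg level was 1.58, 4.81 and 4.0 times that of the same-numbered CD101pos library. The WT sort difference was 1.23 ± 0.85 without a block (adjusted p = 0.685) and 1.48 ± 0.28 with it (adjusted p = 0.0024). From naive to zymosan CD101pos cells the log2 change was 2.5 ± 1.00 in WT (adjusted p = 0.198) and 1.4 ± 0.83 in CGD (adjusted p = 0.303). Without CGD naive replicate 2 the CGD change was 3.40 ± 0.80 (adjusted p = 0.0116). T and NK cells are the best known carriers of 4-1BB. The 10 T and NK cell markers summed to 9.92 to 12.8 CPM in WT and 9.04 to 19.0 CPM in CGD zymosan CD101pos libraries, and to 12.9 to 18.5 and 10.8 to 15.3 CPM in CD101neg libraries, and the genotypes overlapped in both sorts. Without Cd3d, the most abundant of the 10, the sums were 3.81 to 8.30 and 6.58 to 10.2 CPM in zymosan CD101pos libraries of WT and CGD, which overlapped. In CD101neg libraries they were 10.7 to 12.1 CPM in WT and 4.72 to 7.17 CPM in CGD, which did not overlap. The part of T and NK cells in the Tnfrsf9 level was not tested.

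**Figure D3:**
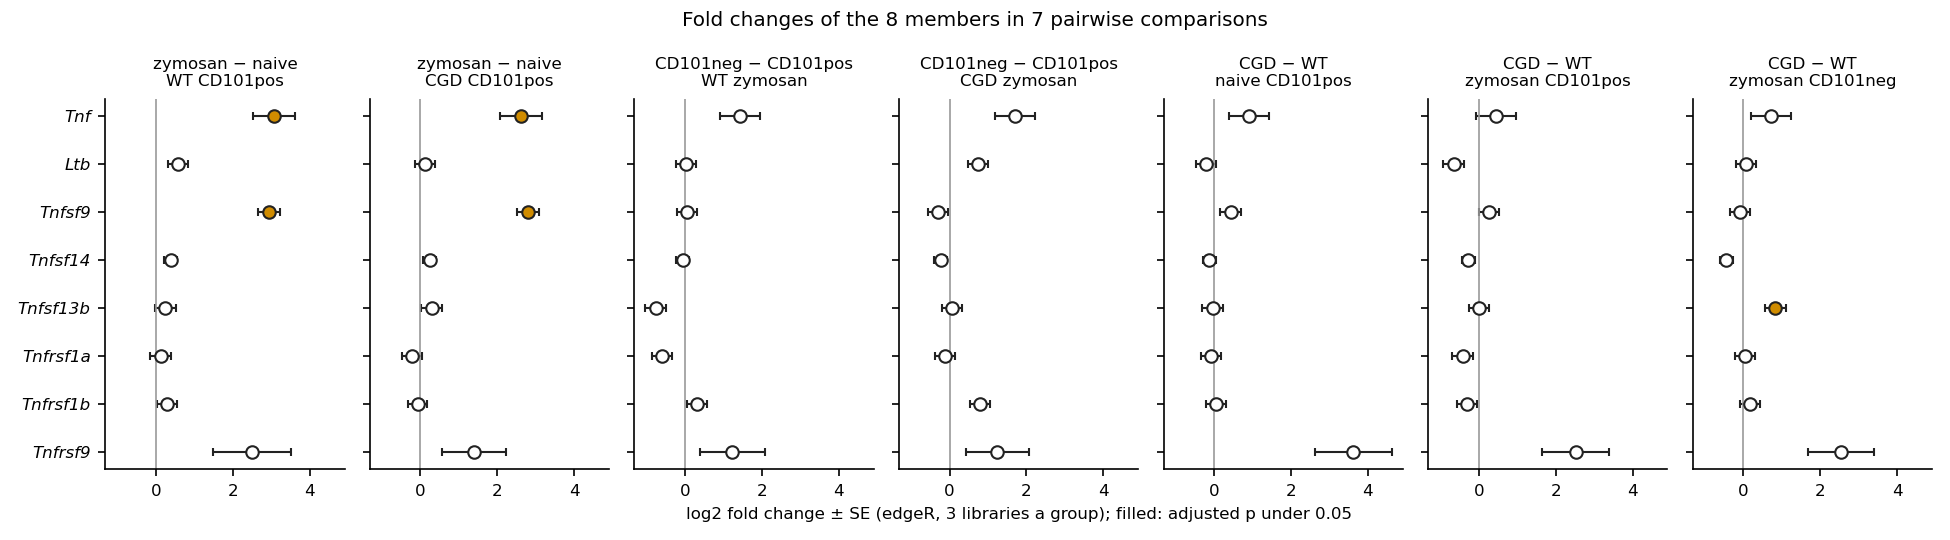
Log2 fold changes of the 8 members with their SE in the 7 pairwise comparisons, 3 libraries a group. Filled points passed the threshold, which were Tnf and Tnfsf9 with zymosan in both genotypes and Tnfsf13b between genotypes in CD101neg cells. Tnfrsf9 had the widest errors.

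Levels of different genes were compared per kilobase of exon (GENCODE vM21 exon lengths). Among 46 superfamily genes, Tnfrsf1a ranked first in naive cells of both genotypes (479 CPM per kb in WT and 452 in CGD) and in WT zymosan CD101pos cells (521). Tnf ranked 4 in WT naive cells, with 39.2 CPM per kb, and first in CGD zymosan CD101pos cells (452), WT CD101neg cells (895) and CGD CD101neg cells (1472 CPM per kb). In WT zymosan CD101pos cells Tnf ranked 2, with 331 CPM per kb. Tnfrsf1b lay between 159 and 275 CPM per kb in all groups. Tnfrsf9 stood at 5.93 CPM per kb in its highest group, against 11.9 to 14.7 CPM per kb for its ligand Tnfsf9 in the zymosan groups.

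The genes most like a member were ranked by Pearson's r of log2 CPM over the 18 libraries, among 5896 genes with at least 10 CPM in some group. The 18 values of each gene share the same 6 groups and scaling factors, so r is a description of these libraries. For Tnf they were Il1a (r = 0.98), a cytokine of the IL-1 family, Icam1 (r = 0.98), an adhesion molecule, and Il23a (r = 0.98), a subunit of IL-23. For Tnfrsf9 they were Nab2 (r = 0.95), Spp1 (r = 0.95), which encodes osteopontin, and Renbp (r = 0.95). For Tnfsf9 they were Eps8, Baz1a and Mrpl52 (r = 0.97 each). The receptors Tnfrsf1a and Tnfrsf1b were most like Ripor2 (r = 0.93) and Celf1 (r = 0.92), and no gene had r above 0.74 with Tnfsf14. Among the members themselves, r was 0.89 between Tnf and Tnfsf9, 0.83 between Tnf and Tnfrsf9, and -0.63 between Tnf and its receptor Tnfrsf1a.

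Of 38 other ligands and receptors of the superfamily, 33 were tested. In CGD against WT CD101neg cells, 1 was higher and 4 were lower, which is 15.2% of the 33, near the 12.9% of all genes called. Fas, a death receptor, was higher by 1.06 ± 0.19 (adjusted p = 0.00114, edgeR; 544 against 261 CPM). Tnfrsf21 (death receptor 6) was lower by -0.90 ± 0.16, Tnfrsf19 by -2.04 ± 0.35, Tnfrsf13c (the BAFF receptor of B cells) by -2.50 ± 0.66 and the ligand Tnfsf12 (TWEAK) by -1.71 ± 0.43. In zymosan CD101pos cells, 1 was higher, Fas again (0.82 ± 0.18), and 1 was lower, Tnfrsf21 (-0.92 ± 0.15). Of the sort comparisons, that in CGD had 1 call, Fas, higher in CD101neg cells by 0.76 ± 0.18, and that in WT had 0. Mean Tnfrsf13c stood at 2.24 CPM in WT naive, 0.275 CPM in WT zymosan CD101pos and 0.599 CPM in WT CD101neg cells. In CGD it was 0.982, 0.0903 and 0.104 CPM in the same order. The B cell marker sums in CD101neg libraries were 121 to 147 CPM in WT and 27.1 to 44.7 CPM in CGD. Without Ighm, the most abundant of these markers, they were 50.4 to 54.4 CPM in WT CD101neg and 20.1 to 30.1 CPM in WT zymosan CD101pos libraries. The part of B cells was not tested. The CD101neg calls of Fas, Tnfrsf21 and Tnfrsf19 held under every alternative, while that of Tnfrsf13c was lost without WT replicate 3 or CGD replicate 2 or 3, and that of Tnfsf12 without CGD replicate 2. The Fas call in CD101pos cells was lost without CGD or WT replicate 2 and in a fit of only the 2 groups, and that between the CGD sorts with library size alone and without replicate 2 or 3 of either sort.

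With zymosan in WT CD101pos cells, 1 of these 33 was higher and 1 lower (6.06%, against 3.79% of all genes), and in CGD 6 were higher and 4 lower (30.3%, against 12.8%). Tnfrsf26, a mouse decoy-type receptor, rose by 3.26 ± 0.56 in WT (32.7 to 313 CPM) and by 2.70 ± 0.55 in CGD (89.7 to 581 CPM). It lies in a cluster with the close relatives Tnfrsf22 and Tnfrsf23, between which reads may be split in ways that are uncertain. Tnfrsf13c fell by 3.02 ± 0.60 in WT and by 3.32 ± 0.64 in CGD on the log2 scale. In CGD Tnfrsf21 fell by 1.67 ± 0.16 and Fas rose by 1.11 ± 0.19. The ligand Fasl fell by 2.34 ± 0.64 in CGD, at levels of at most 1.28 CPM in any library, and its call was lost without CGD zymosan replicate 1 or 2 or CGD naive replicate 3. The other calls named here held under every alternative.

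Among the 24 adaptors, kinases and ligases that carry the TNF signal inside the cell, 4 were higher and 0 lower with zymosan in WT (16.7%, against 3.79% of all genes), and 7 higher and 1 lower with zymosan in CGD (33.3%, against 12.8%). Between genotypes 3 were higher in CGD in CD101pos cells (12.5%, against 5.30%), and 2 higher and 2 lower in CD101neg cells (16.7%, against 12.9%). Between the CGD sorts 3 were higher in CD101neg cells (12.5%, against 7.35%). Casp8, the caspase that acts downstream of death receptors, was 81.8 ± 7.84 CPM in CGD and 28.8 ± 4.36 CPM in WT zymosan CD101pos cells (1.51 ± 0.21 on the log2 scale, adjusted p = 0.000491, edgeR). Ripk3, a kinase of necroptosis, was 25.1 ± 2.24 against 7.68 ± 1.11 CPM in the same cells (1.71 ± 0.21, adjusted p = 0.000158). Both were also higher in CGD CD101neg cells (1.56 ± 0.21 and 1.27 ± 0.21), where Fadd, the adaptor of Casp8, was lower (-1.22 ± 0.35), as was Traf5 (-0.95 ± 0.26). The Casp8 and Ripk3 calls between genotypes held under every alternative. Those of Fadd and Traf5 were lost in a fit of only the 2 groups, without either WT replicate 1 or 3, without CGD replicate 3, and without CGD replicate 1 (Fadd) or 2 (Traf5). Traf1, an adaptor bound by TNFR2, rose with zymosan in WT (1.75 ± 0.39) and in CGD (1.76 ± 0.39), the former not without the low-count filter and not without WT naive replicate 2 or 3 or WT zymosan replicate 3. The median log2 difference over the 24 genes was 0.29 with zymosan in WT and -0.12 in CGD. Between genotypes it was 0.30 in CD101neg and -0.011 in CD101pos cells, and between the CGD sorts 0.16. Over all genes these medians lay between -0.08 and 0.024.

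Of the 5 NF-kB subunits, 3 were higher in CGD than in WT CD101neg cells (12.9% of all genes called). Between the CGD sorts 3 were higher in CD101neg cells (7.35%), and 3 rose with zymosan in CGD (12.8%). Those between the CGD sorts were Nfkb2, Relb and Rel, and their calls were lost under 5, 5 and 3 of 12 alternatives. Those with zymosan in CGD were Nfkb1, Nfkb2 and Relb, with Nfkb2 lost under 4 and Relb under 6 of 12. In CGD against WT CD101neg cells Nfkb1 was 158 ± 21.8 against 53.6 ± 1.83 CPM (1.56 ± 0.18, adjusted p = 2.22e-05, edgeR), Rel was higher by 1.12 ± 0.22 and Nfkb2 by 1.13 ± 0.24. In zymosan CD101pos cells Nfkb1 alone passed (1.05 ± 0.17), and with zymosan it rose in WT (0.78 ± 0.17) and in CGD (1.42 ± 0.18). Its WT rise was lost with library size alone and without WT naive replicate 2 or 3 or WT zymosan replicate 3, and its other calls held under every alternative, while the genotype calls of Rel and Nfkb2 were lost with library size alone, and that of Nfkb2 also in a fit of only the 2 groups. The median over the 5 was 1.12 in CD101neg and 0.45 in CD101pos cells between genotypes, and 0.47 and 0.88 with zymosan in WT and CGD.

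Of the 11 genes that restrain the signal, those that passed were all higher. They numbered 5 with zymosan in WT, 6 with zymosan in CGD, 5 in CGD against WT CD101neg cells, 1 in CGD against WT CD101pos cells and 4 in the CGD sort comparison. In this order the shares were 45.5%, 54.5%, 45.5%, 9.09% and 36.4%, against 3.79%, 12.8%, 12.9%, 5.30% and 7.35% of all genes. Of all genes called, 76.9%, 55.5%, 51.7%, 52.3% and 44.5% were higher. Cflar, which encodes the caspase-8 inhibitor c-FLIP, passed in all 5, with 1.36 ± 0.23 and 1.73 ± 0.23 for zymosan in WT and CGD, 1.23 ± 0.23 and 0.85 ± 0.23 for genotype in CD101neg and CD101pos cells, and 1.02 ± 0.23 for the CGD sorts. With library size alone its calls between genotypes and between the CGD sorts were lost, and that between the CGD sorts was also lost without CGD CD101neg replicate 2 or 3 or CGD CD101pos replicate 1. Its call in CD101pos cells was also lost in a fit of only the 2 groups and without any 1 of 5 of the 6 libraries. Nfkbib and Tnip1, inhibitors of NF-kB signalling, passed in the other 4 comparisons as well, and with zymosan in WT their calls were lost with library size alone and without WT naive replicate 2 or 3 or WT zymosan replicate 3, that of Tnip1 also without WT naive or WT zymosan replicate 1. Both calls between the CGD sorts were lost with library size alone, that of Nfkbib also without replicate 1 or 2 of CGD CD101pos or 2 or 3 of CGD CD101neg. The genotype call of Tnip1 in CD101neg cells was lost with library size alone and in a fit of only the 2 groups. The median over the 11 genes was 0.97 and 0.87 with zymosan in WT and CGD, 0.45 and 0.11 between genotypes in CD101neg and CD101pos cells, and 0.43 between the CGD sorts.

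Genes that set the output of TNF moved in both directions. Of 11, 2 were higher with zymosan in WT and 4 higher and 2 lower with zymosan in CGD. Between genotypes 3 were higher and 1 lower in CD101neg cells, and 1 higher and 2 lower in CD101pos cells, and between the CGD sorts 2 were higher and 1 lower. In this order the shares called were 18.2%, 54.5%, 36.4%, 27.3% and 27.3%, against 3.79%, 12.8%, 12.9%, 5.30% and 7.35% of all genes. Map3k8, a kinase needed for TNF production in macrophages, rose with zymosan in WT (1.08 ± 0.19) and CGD (1.82 ± 0.19) and was higher in CGD in CD101neg (0.92 ± 0.19) and CD101pos cells (0.69 ± 0.19). Zfp36l2, of the family of proteins that destabilise AU-rich mRNAs, was lower in CGD in both sorts (-0.82 ± 0.19 in CD101neg and -0.91 ± 0.19 in CD101pos cells), the former not in a fit of only the 2 groups. Adam17, the protease that releases TNF, was higher in CGD CD101neg than in CGD CD101pos cells (1.21 ± 0.31, adjusted p = 0.0247, edgeR). With library size alone the Map3k8 calls between genotypes and the Adam17 call were lost. The Map3k8 call in CD101pos cells was also lost without the low-count filter, in a fit of only the 2 groups and without CGD replicate 1 or 2 or WT replicate 2 or 3, and the Adam17 call without CGD CD101pos replicate 1 or 2 or CD101neg replicate 2 or 3. Of the 84 genes of these lists tested, 0 passed between genotypes in naive cells by edgeR and by DESeq2, with 12 at an unadjusted p under 0.05. Between the WT sorts 0 passed by edgeR and 2 by DESeq2, with 20 at an unadjusted p under 0.05 and 19 past the threshold with the replicate number as a block. Over all 16575 genes, 1147 in the naive comparison and 1698 between the WT sorts were at an unadjusted p under 0.05 (edgeR). Between the WT sorts the main fit called 73 of all genes, and the highest count under any alternative was 1741.

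**Figure D4:**
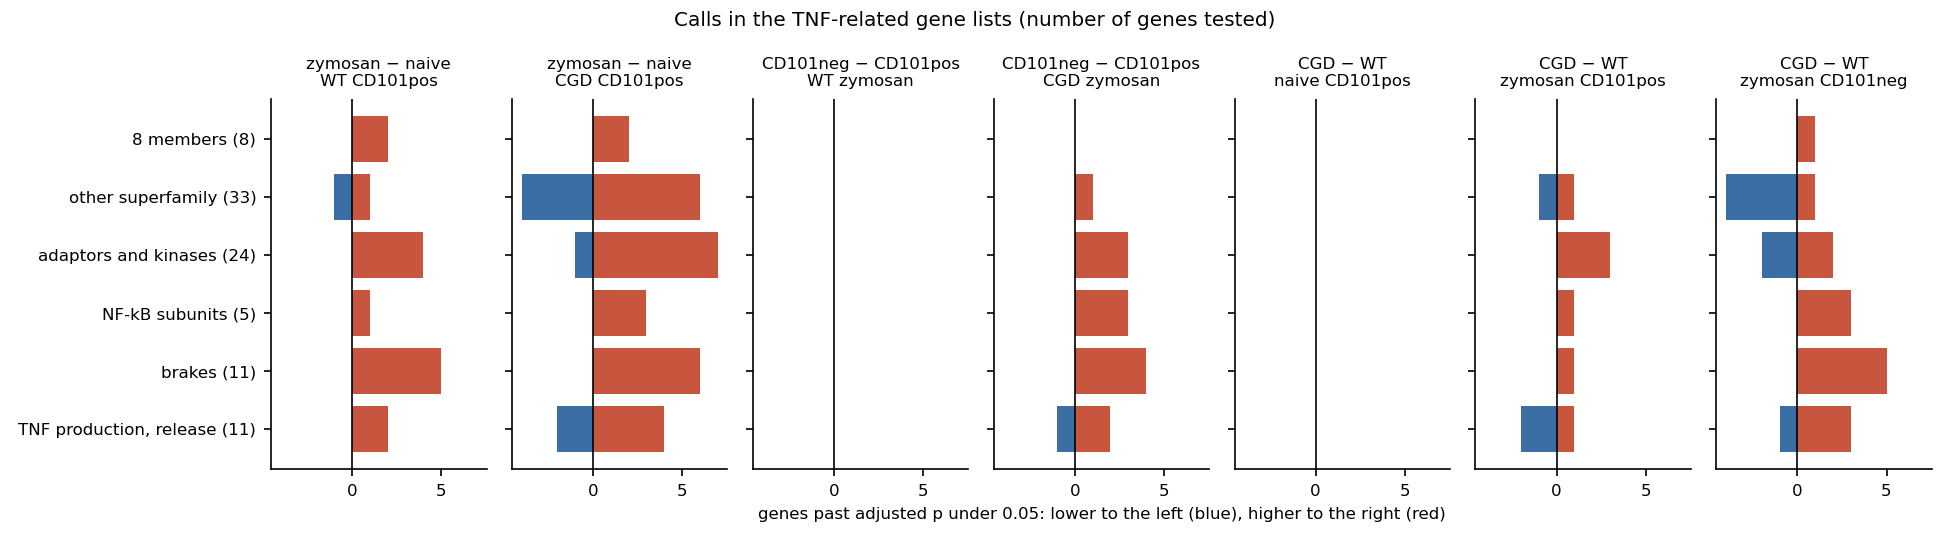
Number of genes past the threshold in each TNF-related list and pairwise comparison, higher to the right and lower to the left, with the number of genes tested in brackets. The brakes were called upward only, and there was no call in any list in naive cells between genotypes or between the WT sorts.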

How the data were processed

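The deposited table holds raw read counts per gene for 18 libraries, made by the authors. The submitters' processing notes name STAR 2.5.1a, featureCounts 1.4.6-p5 and Subread, with no roles given. The reads came from SMARTer libraries, per the labels' protocols. For the strand setting, the genome build and the annotation release, each is not given in the sources used here. Of 40757 lines, 276 were exact repeats of another line, and each gene ID was kept once. Libraries held 33.7 to 67.9 M counts, so for abundant members the spread between libraries, not counting error, limits precision.

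Counts were tested with edgeR 4.0.16 in R 4.3.3 (robust quasi-likelihood fit of all 18 libraries, TMM factors, filterByExpr by group, 12 residual degrees of freedom), for 7 pairwise comparisons and 2 interactions, with Benjamini-Hochberg adjustment over 16575 genes and a threshold of 0.05. The SE is the log2 fold change divided by the square root of F. CPM use the TMM factors. The procedure was tested on simulated data. The simulated counts were independent draws, with no shared effect of a replicate number and no broad shift in composition between groups. They do not show how the block fits or the scaling behave where such effects exist. The 8 members and the gene lists were chosen with earlier results of these data known. All members are named in all comparisons, and of each other list up to 4 genes a comparison, those past the threshold with the lowest p.

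Alternatives were DESeq2 1.42.0, scaling by RLE factors or by library size alone, fits restricted to the groups in a comparison, all genes without the low-count filter, the replicate number as a block, and each library left out in turn. Leaving out WT zymosan replicate 2 of both sorts together was chosen after seeing the data. Replicate numbers come from the sample titles. Deviations from the group mean of same-numbered CD101pos and CD101neg libraries correlated across genes at 0.487, 0.425 and 0.312 in WT, which was taken as pairing. For the sort comparisons and their interaction with genotype, the block was genotype and number together over all zymosan libraries. The CGD numbers were therefore blocked in that fit too, but they were not taken as pairs in reading the results. In all other comparisons the block was the number alone, shared by libraries of both genotypes and treatments. A number has no stated meaning across those groups. Exon lengths are from GENCODE vM21 and promoters from RefSeq on GRCm38.p6. CPM per kb and motif positions depend on those references.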

Additional observations from a re-analysis of the deposited data

Results flagged for a closer look

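No member of the 8 was flagged. Groups of 3 libraries are too small to test for an outlying library. In the other TNF-related lists, 2 genes changed with zymosan by different amounts in the genotypes, by the interaction test of edgeR. Tnfrsf21 went from 29.1 ± 1.17 to 20.7 ± 2.67 CPM in WT and from 34.9 ± 1.77 to 11 ± 1.11 CPM in CGD CD101pos cells (means ± SD, n = 3), an interaction of -1.18 ± 0.22 on the log2 scale (adjusted p = 0.0252). Zfp36l2 went from 65.8 ± 10.7 to 70.0 ± 3.90 CPM in WT and from 83.8 ± 14.1 to 37.3 ± 5.17 CPM in CGD, an interaction of -1.26 ± 0.27 (adjusted p = 0.0497). The Tnfrsf21 call was lost under 11 and the Zfp36l2 call under 13 of 19 alternatives.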

How the results depend on the processing

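The count of members past the threshold stayed at 2 for zymosan in WT and at 0 for the interaction with zymosan under every alternative, and for zymosan in CGD it was 2, or 3 on leaving out 1 library. With the replicate number as a block the count went from 0 to 4 between the WT sorts, from 0 to 3 between the CGD sorts, where the numbers were not taken as pairs (Tnf 1.66 ± 0.14, Tnfrsf1b 0.76 ± 0.15 and Tnfrsf9 1.18 ± 0.24, with adjusted p = 3.86e-07, 0.00123 and 0.0017), from 0 to 1 in the interaction with sort (Tnfsf13b 0.92 ± 0.26, adjusted p = 0.0268, edgeR) and from 1 to 0 between genotypes in CD101neg cells. The block changed no other member's call. Over all genes, the highest counts under any alternative were 1741 between the WT sorts (73 in the main fit) and 3924 between the CGD sorts (1218). These rises in the count of members are therefore not shown to be particular to the members. Same-numbered CGD libraries correlated at 0.236, 0.0245 and 0.26 in their deviations from the group mean, for each library the highest of its 3 correlations with the other sort, a hint from the data and not from the labels. DESeq2 gave 2 between genotypes in CD101neg cells, 1 in naive cells and 3 between the CGD sorts. Fits of only the groups compared gave 1 in CD101pos cells between genotypes and 1 between the CGD sorts, and no low-count filter gave 1 between the CGD sorts. Leaving out 1 library gave 0 to 1 between genotypes in CD101neg cells and in CD101pos cells, 0 to 1 between the WT sorts and 0 to 2 between the CGD sorts. Over all genes only the range across the alternatives is given, below. These counts of members are therefore not shown to be particular to the members either.

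The sign of an uncalled Tnf difference turned in 3 results. The naive genotype difference ranged from -0.027 to 1.22 on leaving out 1 library. The interaction with sort was -0.17 with library size alone and ranged from -0.13 to 0.62 on leaving out 1 library. The interaction with zymosan ranged from -0.81 to 0.48 on leaving out 1 library. Over all 72 fold changes of members, 76 of 1008 alternative values had the other sign, and 0 of these were past the threshold in either fit. Of 97 calls of list genes and Cybb, 44 were lost with library size alone, 17 with only the groups compared and 46 without some library, and 0 turned sign. With library size alone the median log2 difference of all genes went from -0.08 to -0.57 between genotypes in CD101neg cells, from -0.02 to -0.34 between the CGD sorts, and from -0.03 to -0.33 and 0.00 to -0.24 with zymosan in WT and CGD, and 10.4% in place of 51.7% of the CD101neg calls were higher in CGD. The cause was not tested. Counts over all genes ranged from 1062 to 3985 (2139 in CD101neg cells), 320 to 1405 (878 in CD101pos cells) and 2 to 110 (21 in naive cells) between genotypes, 0 to 1741 (73) and 321 to 3924 (1218) between the WT and CGD sorts, 263 to 1222 (629) and 1170 to 2827 (2128) with zymosan in WT and CGD, and 43 to 2229 (141) and 5 to 261 (53) in the interactions with sort and zymosan.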
